A study of Arabidopsis thaliana with 21 samples.

Results

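The cell wall and tubulin families described here are 63 genes of Arabidopsis thaliana whose annotated symbols mark them as expansins (EXPA, EXPB, EXLA, EXLB), xyloglucan endotransglucosylase/hydrolases (XTH), trichome birefringence-like proteins (TBL), cellulose synthase-like proteins (CSL) or tubulins (TUA, TUB). They were chosen by name alone, out of 13356 genes with a named probe set, and each was measured by 1 probe set. The gene table holds 146 genes of these families, so the other 83 were not analysed here. Measured were 10 of 24 EXPA, 4 of 6 EXPB, all 3 EXLA, the 1 EXLB, 9 of 30 XTH, 22 of 41 TBL, 7 of 26 CSL, 2 of 6 TUA and 5 of 9 TUB genes.

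A plant cell grows by yielding of its wall under turgor. Expansins loosen the contacts between cellulose and the matrix, and XTH enzymes cut and rejoin the xyloglucan chains that lie on cellulose. CSL enzymes make the backbones of matrix glycans, with mannans from the CSLA branch and the xyloglucan backbone from the CSLC branch, and several TBL proteins add acetyl groups to these polymers. Tubulins build the cortical microtubules that guide cellulose deposition. In the dark the seedling stem, the hypocotyl, elongates fast, and red light, seen by phytochromes, slows it while the cotyledons begin to expand.

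Each of 21 one-colour Affymetrix arrays carried RNA from Col-0 etiolated seedlings, 3 biological replicates in each of 7 groups. All seeds were kept cold at 4 °C in the dark for 4 days, given 3 h of white light to start germination, and grown without sucrose in darkness for 4 days at 21 °C. Wild type was then collected at once (WT_D0), after 1 h or 18 h more of darkness (WT_D1, WT_D18), or after 1 h or 18 h of continuous red light (WT_R1, WT_R18). The pif3 mutant, named for a phytochrome-binding transcription factor, was collected in darkness at the first times only (pif3_D0, pif3_D1). Its allele is not given in the labels, PIF3 itself was not analysed here, and so these arrays rest on their labels. Levels below are quantile-normalized intensities in arbitrary units, and changes are differences of log2(intensity + 16), so that dim genes are understated. A gene was called when limma's Benjamini-Hochberg adjusted p over 22746 probe sets was under 0.05.

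The arrays agreed closely within groups (r of 0.977 to 0.992 across probe sets), but not in every technical signal. The 25S rRNA control lay at 128 to 466 units in WT_R1 and at 2650 to 3423 in WT_R18. In wild-type darkness it was low in WT_D0 replicate 1 (624), WT_D1 replicate 2 (689) and WT_D18 replicate 1 (365), and it lay at 4289 to 5410 in the 6 pif3 arrays. WT_R1 replicate 2 and WT_D18 replicate 2 lay highest on the second principal component. The labelled light state matched its markers at 18 h: the shade genes IAA29 and HAT2 fell and the 3 LHCB4 antenna genes and RCA rose after 18 h of red light (6 of 6 called). At 1 h IAA29, HAT2, LHCB4.2 and LHCB4.3 were called in the same directions. LHCB4.1 (0.04, adjusted p = 0.94) and RCA (0.23, adjusted p = 0.55) were not called at 1 h. The listed markers PORA, PIL1 and GUN5 were not measured. The 1 measured seed storage gene of an 11-gene list, PAP85, was lower after 18 h of red light (-3.75, adjusted p = 1.1e-07), and its part in the results at 18 h was not tested. No gene of an 11-gene list for xylem secondary walls was measured, so that tissue could not be checked. As the labels name the seedling and no organ, fewer cells of a type and less RNA per cell cannot be told apart.

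Of the 63 genes, 42 had a mean of at least 50 units over all arrays. At the dim end, 9 had a mean under the offset of 16 units in each of the 7 groups: CSLA01, EXPA21, EXPA24, TBL20, TBL21, TBL43, XTH21, XTH26 and XTH29. EXPA21 and EXPA24 lay below 0 units on all 21 arrays, so no change could be measured for them.

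Red light moved many of these genes by 18 h and few by 1 h. At 18 h, 29 of 63 were called (46%), against 34.4% of all probe sets; 10 were higher (15.9% against 14.1%) and 19 lower (30.2% against 20.3%). Changes of at least 2-fold were called for 12 genes, 4 higher and 8 lower, which is 19% of the genes against 7.96% of all probe sets. That background includes dim probe sets, whose changes the offset understates, and a 2-fold share of bright probe sets was not counted. Shares over all probe sets, here and below, include such dim ones. The median change over the 63 genes was -0.05, beside -0.04 over all probe sets. With dim probe sets left out, 26 of the remaining 42 genes were called (61.9%), 8 higher and 18 lower. Of the remaining probe sets 53.4% were called, and 37.2% of those calls were higher. At 1 h, 6 of 63 were called (9.52%, against 4.94% of all probe sets), 2 higher and 4 lower (2.78% and 2.16% of all probe sets), with a median of -0.10 beside -0.02. These shares are descriptions of the families, which were picked with earlier results of these data known.

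**Figure D1:**
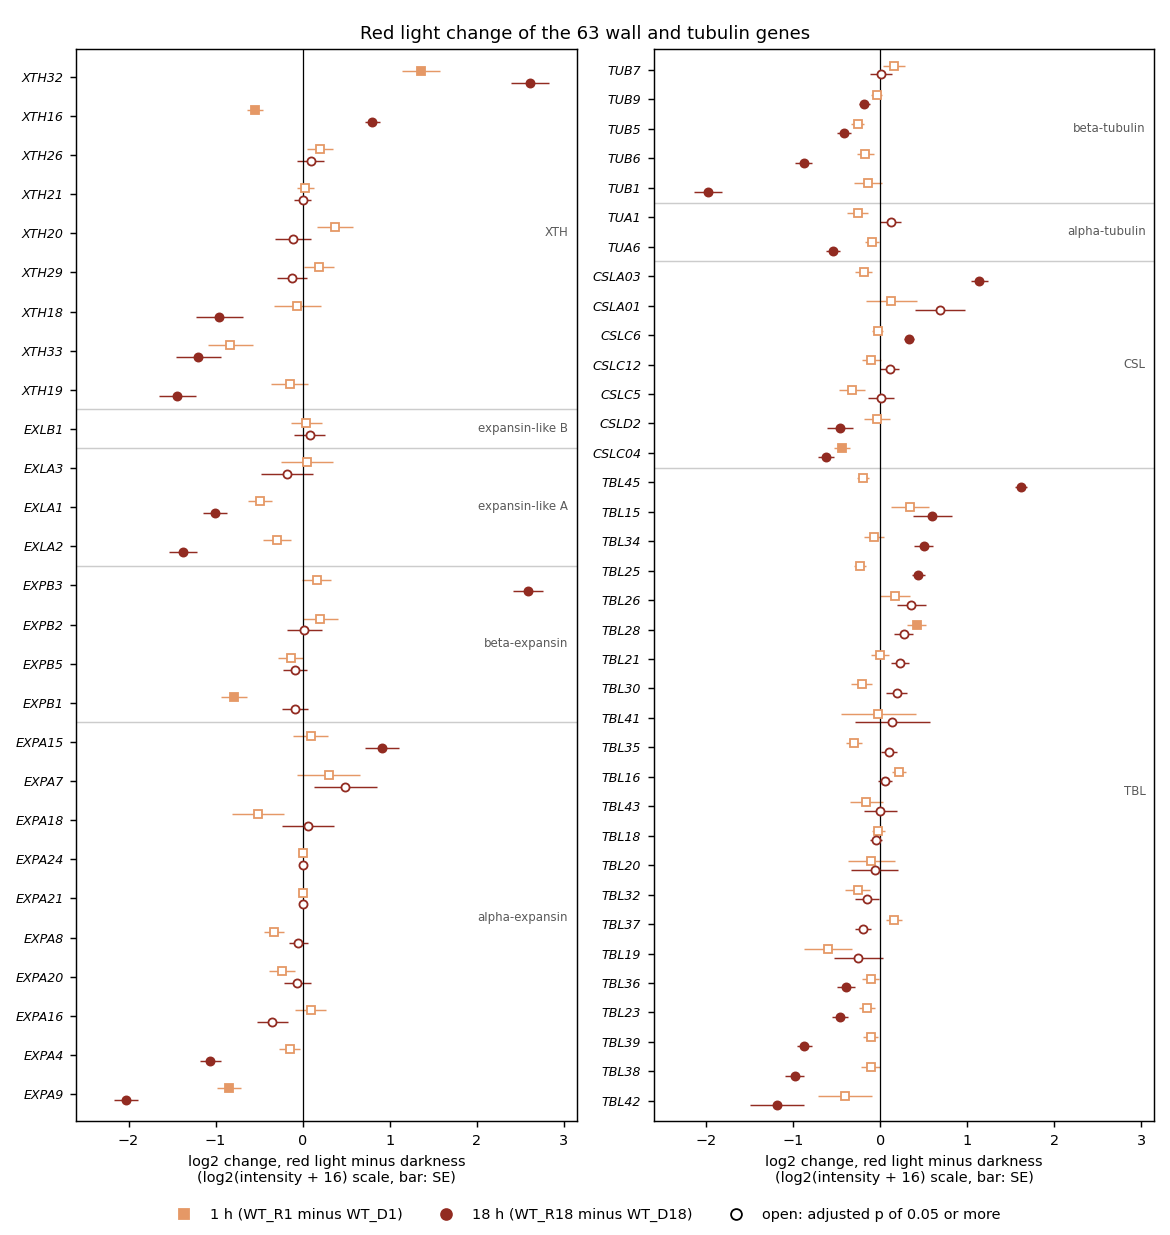
Log2 change in red light against darkness for each of the 63 genes, by family, on the log2(intensity + 16) scale with its standard error; squares give 1 h, circles give 18 h, and filled symbols were called. XTH32 and EXPB3 lie farthest to the right at 18 h (2.61 and 2.59), and EXPA9 and TUB1 farthest to the left (-2.03 and -1.98).

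Of the 63 genes, 4 were called at both times. Of all probe sets, 4.94% were called at 1 h and 34.4% at 18 h, so more late than early calls are not particular to these families. The overlap of the 2 times was not counted over all probe sets. XTH32 was higher at both, EXPA9 and CSLC04 were lower at both, and XTH16 was lower at 1 h and higher at 18 h. Another 25 were called at 18 h and not at 1 h, and 2 (EXPB1 and TBL28) at 1 h and not at 18 h. Whether the change itself differed between the times was tested as a difference of differences, which called 19 of 63 genes (30.2%, against 18.8% of all probe sets), 10 with a higher and 9 with a lower value at 18 h (9.29% and 9.47% of all probe sets). It was called for 14 of the 25 genes called at 18 h alone, and the other 11 were not shown to respond differently at the 2 times.

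Among the alpha-expansins, the classical acid-growth proteins, EXPA9 (AT5G02260) moved most. Its level was 1111, 1213 and 1041 units in WT_D1 and 751.5, 518.7 and 594.1 in WT_R1, then 938.5, 709.6 and 785 in WT_D18 against 194.3, 188.6 and 174.8 in WT_R18. Every red-light array lay below every dark array of its time. The WT_R18 arrays lay closest together in units (SD 10, against 117 in WT_D18), at the lowest mean. The log2 change was -0.85 (SE 0.14, adjusted p = 9e-04) at 1 h and -2.03 (SE 0.14, 1.6e-08) at 18 h, a 4.36-fold lower mean intensity at the later time. The later change was the larger by 1.18 (adjusted p = 4.7e-04).

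EXPA4 (AT2G39700) was lower at 18 h only by its own tests, and the times differed (-0.91, adjusted p = 0.0014). Its arrays read 679.1, 553.7 and 590.9 units in WT_D18 and 304.2, 264.8 and 279.4 in WT_R18, a log2 change of -1.06 (SE 0.12), where 1 h gave -0.15 (adjusted p = 0.67). EXPA15 (AT2G03090) went the other way at 18 h, from 82, 45.7 and 71.4 units to 154.8, 131 and 124.1 (0.91, SE 0.20, adjusted p = 0.0024). The groups did not overlap for either gene. The remaining 7 EXPA genes were not called at either time. Among them EXPA8, at 1071 to 1442 units as group means, was at -0.05 at 18 h (adjusted p = 0.80). At 1 h the EXPA8 groups were separate, 1072 to 1141 units in red light against 1325 to 1486 in darkness, without a call (-0.33, adjusted p = 0.14). EXPA7 and EXPA18, known from root hairs, had changes of 0.49 and 0.06 at 18 h (adjusted p = 0.35 and 0.95).

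The beta-expansin EXPB3 (AT4G28250) was the clearest late increase of the expansins. It read 29.4, 22.4 and 23.6 units in WT_D18 and 196.1, 209.5 and 299.8 in WT_R18, while the 3 WT_R1 arrays stayed at 26.8 to 33.8 beside 18.9 to 35 in WT_D1. Only the WT_R18 arrays stood apart from the other 18. The change was 2.59 (SE 0.17, adjusted p = 9.4e-09) at 18 h and 0.16 (adjusted p = 0.77) at 1 h, and the times differed by 2.43 (4.7e-06).

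EXPB1 (AT2G20750) showed the reverse timing. Red light for 1 h gave 106.5, 117 and 114.7 units against 178.2, 228.5 and 214.5 in darkness, a log2 change of -0.79 (SE 0.15, adjusted p = 0.0048). At 18 h the groups overlapped, with 133.6 to 206.8 in red light and 148.6 to 209.5 in darkness (-0.09, adjusted p = 0.74). The times differed by 0.70 (adjusted p = 0.035), a call lost in 9 of 12 fits with an array left out: all but those without WT_D1 replicate 1, WT_D18 replicate 1 or WT_R18 replicate 1 (adjusted p of 0.053 to 0.091). EXPB2 and EXPB5 lay at 12.2 to 23.4 units as group means and were not called.

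Of the expansin-like A genes, whose wall activity is not established, EXLA2 (AT4G38400) and EXLA1 (AT3G45970) were lower at 18 h. EXLA2 read 493.9, 533.4 and 492.6 units in WT_D18 against 157, 257.5 and 159.8 in WT_R18 (-1.37, SE 0.16, adjusted p = 5e-06), and EXLA1 read 890.6, 882.7 and 848.3 against 421.1, 536.9 and 339.6 (-1.01, SE 0.14, 3.3e-05). At 1 h the EXLA1 groups were already separate, 575.9, 548.7 and 699.4 in red light against 815.8 to 881.8 in darkness, without a call (-0.49, adjusted p = 0.06). EXLA3 and EXLB1 were not called, at -0.18 and 0.08 at 18 h.

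**Figure D2:**
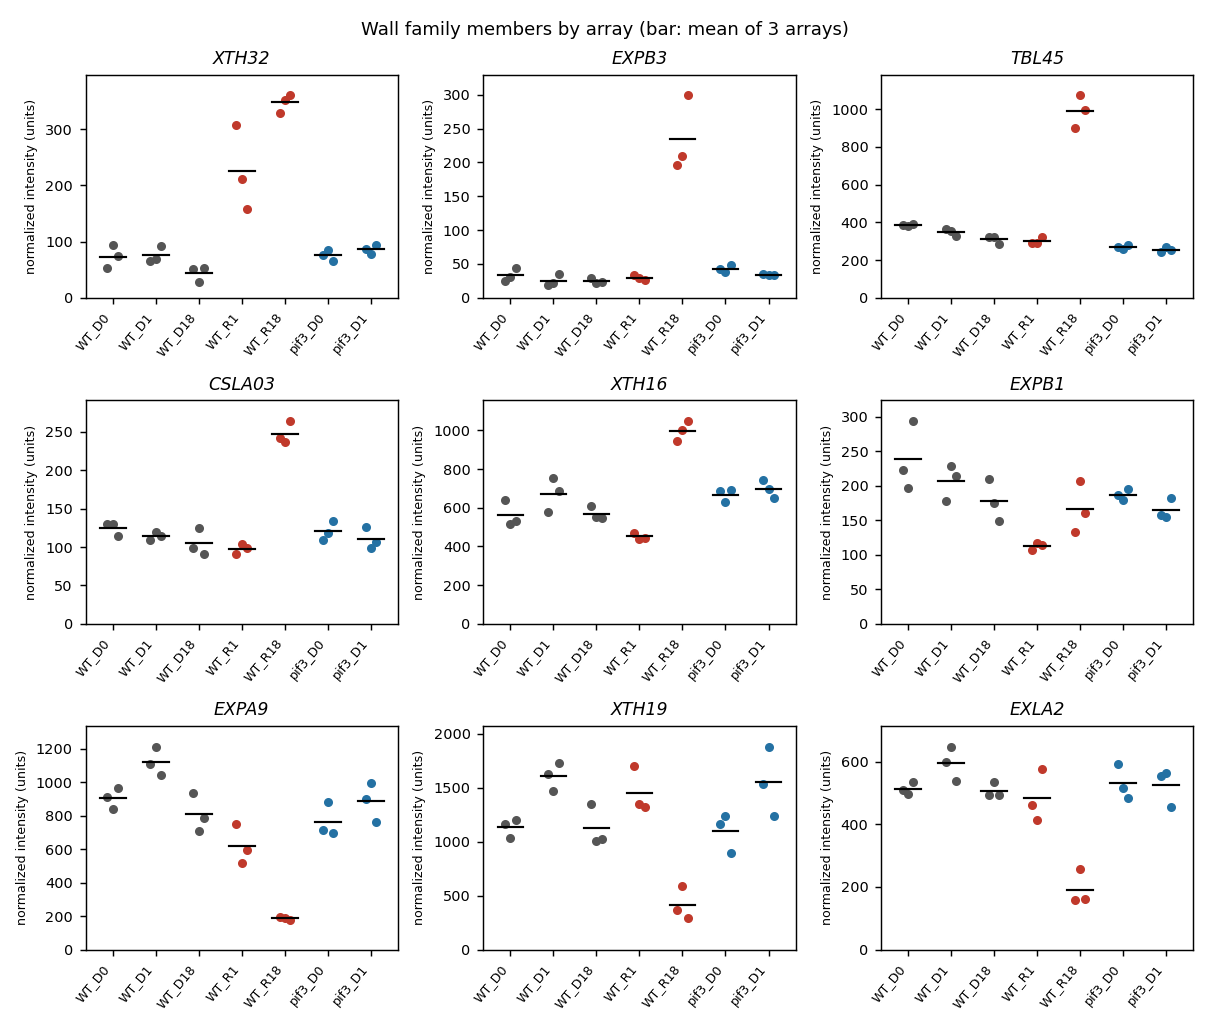
Normalized intensity (arbitrary units, linear axis from 0) of 9 wall genes on each array by group; points are arrays, bars the mean of 3, with darkness in grey, red light in red and pif3 in blue. XTH32 is high in both red-light groups, EXPB3, TBL45 and CSLA03 are high in WT_R18 alone, XTH16 dips in WT_R1 and is high in WT_R18, and EXPA9, XTH19 and EXLA2 are lowest in WT_R18.

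XTH genes moved in both directions, with 2 higher and 3 lower of 9 at 18 h, beside 14.1% and 20.3% of all probe sets. XTH32 (AT2G36870), of the branch that holds xyloglucan hydrolases, was the largest early increase among the 63 genes. Its levels were 65.9, 69.3 and 92.8 units in WT_D1 and 308, 211.3 and 157.3 in WT_R1, followed by 52, 28.8 and 52.8 in WT_D18 and 329.6, 352.8 and 361.3 in WT_R18. All 6 red-light arrays lay above all 15 dark arrays, pif3 included. The log2 change was 1.36 (SE 0.22, adjusted p = 9.8e-04) at 1 h, where the mean was 2.97-fold higher, and 2.61 (SE 0.22, 1.8e-07) at 18 h. The times differed by 1.26 (adjusted p = 0.0095), a call that was lost when the 25S rRNA signal was added as a covariate (adjusted p = 0.09) and without WT_R1 replicate 2 and WT_D18 replicate 2 together (0.053). Part of this difference lay in the dark arrays, with a mean of 76 units in WT_D1 and 44.6 in WT_D18. The red-light means were 225.5 in WT_R1 and 347.9 in WT_R18.

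XTH16 (AT3G23730) changed direction. It read 470.1, 439.4 and 444.8 units in WT_R1 against 578.7, 751.5 and 687.5 in WT_D1 (-0.55, SE 0.09, adjusted p = 0.0013), and 945.9, 1002 and 1050 in WT_R18 against 609.4, 553.2 and 545.5 in WT_D18 (0.80, SE 0.09, 5.6e-06). The WT_R1 arrays were below, and the WT_R18 arrays above, every dark array. The difference between the times was 1.35 (SE 0.13, adjusted p = 4.7e-06).

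Other XTH genes fell at 18 h. XTH19 (AT4G30290) read 1346, 1007 and 1023 units in WT_D18 and 366.8, 589.7 and 297.1 in WT_R18 (-1.44, SE 0.21, adjusted p = 6.8e-05), with no call at 1 h (-0.15, adjusted p = 0.87). Its direct neighbour and close relative XTH18 (AT4G30280) fell by 0.96 (SE 0.27, adjusted p = 0.013), from 387.1 to 534.1 units down to 158.7 to 280.7, and lost its call without WT_R18 replicate 1 (adjusted p = 0.072). These genes are similar in sequence, and whether their probe sets measured them separately was not tested. XTH33 (AT1G10550), predicted to sit at the plasma membrane, had 330.8, 208.2 and 205.6 units in WT_D18 and 80, 170.2 and 63.9 in WT_R18 (-1.20, SE 0.26, adjusted p = 0.002). Its 1 h groups did not overlap either (184.6 to 250 in red light, 369.1 to 424.5 in darkness), yet the adjusted p there was 0.097. With only WT_R18 and WT_D18 in the fit the 18 h adjusted p of XTH33 was 0.078. XTH20, at 31.2 to 60.9 units as group means, was not called.

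Of the 7 CSL genes, 2 were higher and 2 lower at 18 h, beside 14.1% and 20.3% of all probe sets. CSLA03 (AT1G23480), of the mannan synthase branch, read 98.4, 124.7 and 91.5 units in WT_D18 and 242.4, 236.7 and 264.7 in WT_R18. That was a log2 change of 1.14 (SE 0.10, adjusted p = 2.8e-07), against -0.19 (adjusted p = 0.41) at 1 h, and the times differed by 1.33 (1e-05). CSLC04 (AT3G28180), a main xyloglucan backbone synthase, fell by 0.44 (SE 0.09, adjusted p = 0.01) at 1 h and by 0.62 (SE 0.09, 8.5e-05) at 18 h. Its arrays read 1322, 1384 and 1468 units in WT_D1 against 1128, 983.7 and 967.2 in WT_R1, and 1240, 1198 and 1081 in WT_D18 against 645.6, 897.8 and 748.1 in WT_R18. A small rise was called for CSLC6 (AT3G07330) at 18 h, 0.33 (adjusted p = 2.3e-04), and a small fall for CSLD2 (AT5G16910), which is known for root hair walls (-0.46, adjusted p = 0.021). CSLD2 lost its call without WT_D18 replicate 2 (0.086) or WT_R18 replicate 1 (0.073). CSLC5 (0.01) and CSLC12 (0.11) were not called at 18 h, so of the 4 CSLC genes 1 fell and 1 rose.

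The 22 TBL genes showed 4 higher and 5 lower at 18 h, 40.9% against 34.4% of all probe sets. TBL45 (AT2G30010) had the smallest adjusted p of the 63 genes. It stood at 322.1, 323.8 and 285.8 units in WT_D18 and at 897.8, 1076 and 996.2 in WT_R18, where all other arrays lay between 244.6 and 389.5. Its log2 change was 1.62 (SE 0.07, adjusted p = 1.7e-10) at 18 h and -0.20 (adjusted p = 0.14) at 1 h, and the times differed by 1.82 (5e-08).

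TBL25 (AT1G01430), a member of the group of mannan O-acetyltransferases, was also higher at 18 h, with 1312, 1453 and 1230 units against 957.7, 1027 and 944.3 (0.44, SE 0.07, adjusted p = 7.3e-05). TBL23 (AT4G11090), of the same group, was lower, at 105.3 to 110 units against 150.8 to 158.5 (-0.46, adjusted p = 8.2e-04), while TBL26 was at 0.36 without a call (adjusted p = 0.12). Of 5 genes related to xylan O-acetylation, TBL34 (AT2G38320) was higher (0.50, adjusted p = 0.0026) and TBL28, TBL30, TBL32 and TBL35 were not called at 18 h. TBL28 (AT2G40150) had the 1 TBL call at 1 h, at 72.3, 60.2 and 67.2 units against 42.5, 41.2 and 54 (0.42, SE 0.11, adjusted p = 0.037).

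TBL38 (AT1G29050) and TBL39 (AT2G42570) fell together at 18 h. TBL38 read 384.4, 383.3 and 348.1 units in WT_D18 and 166.8, 210.8 and 167.3 in WT_R18 (-0.98, SE 0.11, adjusted p = 3.8e-06). TBL39 read 381.5, 356.6 and 403.2 against 199.6, 214.3 and 188.9 (-0.87, SE 0.09, 1e-06). Both differed between the times, by -0.87 and -0.76. TBL36 fell by 0.39 (adjusted p = 0.0067), a call lost with only WT_R18 and WT_D18 in the fit (adjusted p = 0.083). The calls of TBL15 (0.60, adjusted p = 0.044) and TBL42 (-1.18, adjusted p = 0.0074) rest on means near or below the offset in WT_D18 and WT_R18, at 1.68 and 16.5 units for TBL15 and at 20.6 and -9.75 for TBL42, and their sizes ran from 0.21 to 1.22 and from -2.58 to -0.40 over the settings tried. TBL15 lost its call when WT_D18 replicate 1, WT_D18 replicate 3, WT_R18 replicate 1 or WT_R18 replicate 3 was left out (adjusted p of 0.058, 0.21, 0.071 and 0.19).

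Tubulin genes moved in 1 direction where they moved. At 18 h, 5 of 7 were called, all lower, with a median of -0.42. Of all probe sets, 34.4% were called and 20.3% were lower, with a median of -0.04. That background includes dim probe sets, while every tubulin group mean was at least 466.2 units. With dim probe sets left out, 53.4% were called, 37.2% of these calls were higher, and the median was -0.12. At 1 h none of the 7 was called by limma, beside 4.94% of all probe sets, and the changes ran from -0.26 to 0.16. An unadjusted p under 0.05 was found for 2 of them, beside 14.9% of all probe sets. TUB1 (AT1G75780), a beta-tubulin described before as repressed by light in hypocotyls, read 1412, 923.8 and 1028 units in WT_D18 and 270.7, 330.1 and 212.4 in WT_R18. This was a log2 change of -1.98 (SE 0.16, adjusted p = 1e-07), or a 4.14-fold lower mean. After 1 h TUB1 was still at 1616, 1335 and 1460 units beside 1553, 1590 and 1705 in darkness (-0.14, adjusted p = 0.82), and the times differed by -1.84 (3.4e-05).

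TUB6 (AT5G12250) fell by 0.88 (SE 0.10, adjusted p = 3.4e-06) at 18 h, from 1803, 1836 and 1718 units to 882.4, 1078 and 933.3. The alpha-tubulin TUA6 (AT4G14960) went from 3115, 3046 and 2836 units to 1973, 2135 and 2068 (-0.54, SE 0.08, adjusted p = 5.4e-05). TUB5 fell by 0.42 (adjusted p = 4.9e-04). TUB9 had the smallest called change, -0.18 (adjusted p = 0.02), with overlapping groups at 1393 to 1580 units in red light and 1565 to 1724 in darkness. TUB7 (0.01) and TUA1 (0.12), the latter known mainly from pollen, were not called. Tubulin coding regions are much alike, and whether each probe set measured its own gene alone was not tested. TUB9 lost its call without WT_D18 replicate 1 or 2 or WT_R18 replicate 1 or 3 (adjusted p of 0.081, 0.075, 0.097 and 0.066). The difference between times was called for TUB1, TUB6 (-0.71) and TUA6 (-0.45), the last not with the 25S rRNA covariate (adjusted p = 0.066).

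**Figure D3:**
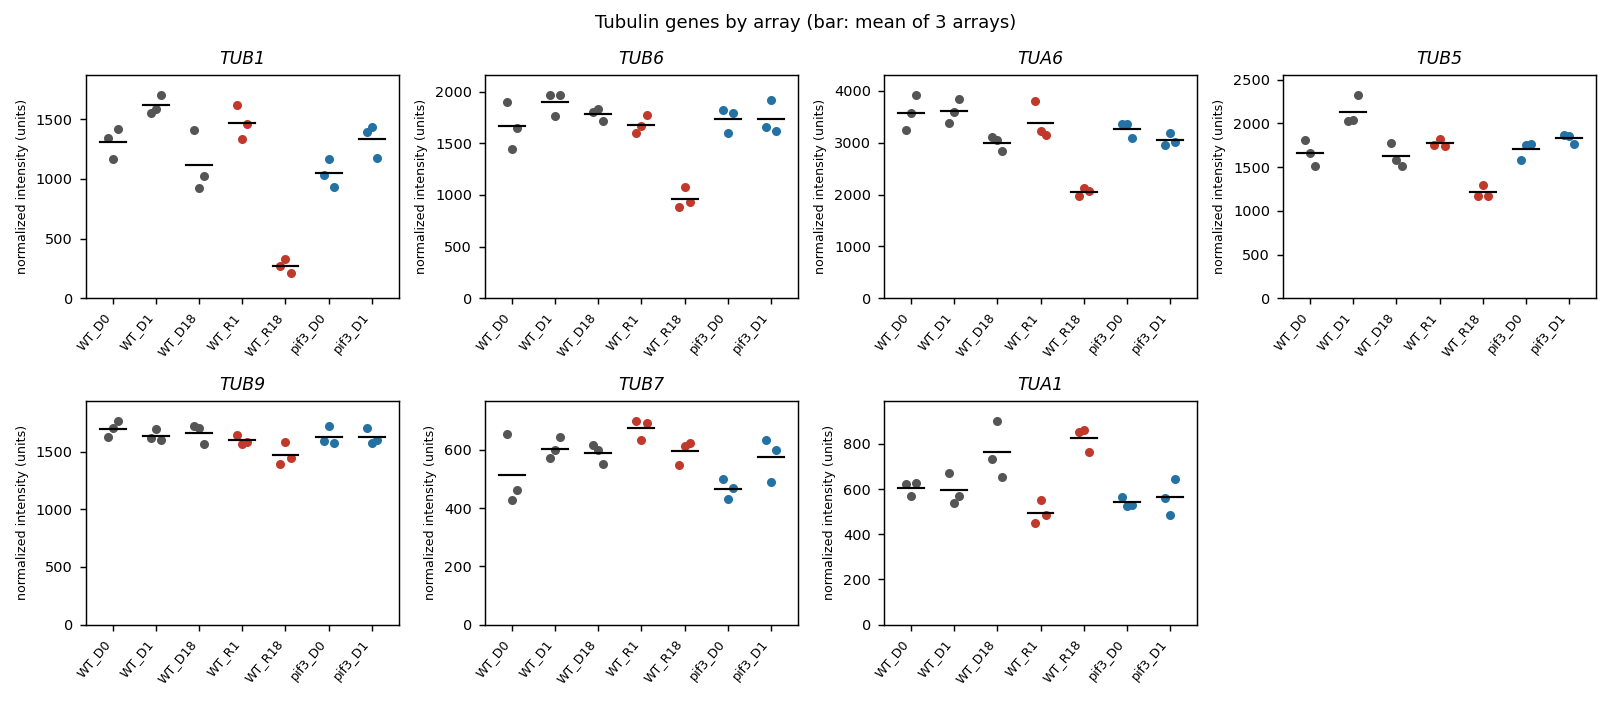
Normalized intensity (arbitrary units, linear axis from 0) of the 7 tubulin genes on each array by group; points are arrays and bars the mean of 3. In TUB1, TUB6, TUA6 and TUB5 the 3 WT_R18 arrays lie below every other array, while TUB9 and TUB7 overlap between groups and TUA1 does not fall in WT_R18.

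The 1 h calls rested on less than the 18 h calls. All WT_R1 arrays were low in 25S rRNA signal, and with that signal as a covariate EXPA9, EXPB1, XTH16 and XTH32 were still called (adjusted p up to 0.029), while CSLC04 (0.07) and TBL28 (0.21) were not. In a fit to the WT_R1 and WT_D1 arrays by themselves, EXPB1 alone of these 6 was called (adjusted p = 0.028), and with no scaling between arrays none of them was. Of all probe sets, 3.2% were called in that fit and 0.725% with no scaling. TBL28 lost its call without WT_D1 replicate 1 or 2 or WT_R1 replicate 1 or 3 (adjusted p of 0.14, 0.15, 0.13 and 0.099), and CSLC04 without WT_D1 replicate 3 (0.054) or WT_R1 replicate 3 (0.052). At 18 h, 10 of the 63 genes were called with no scaling between arrays, 4 higher and 6 lower, beside 8.78% of all probe sets. These were XTH32, EXPB3, TBL45, CSLA03, EXPA9, TUB1, XTH19, EXLA2, TBL42 and EXPA4, and the other 19 lost their 18 h call that way (adjusted p of 0.071 to 0.91).

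Among the 63 genes, 3 were called between dark-grown pif3 and wild-type seedlings as the mean of D0 and D1, all of them TBL genes and all lower in the mutant (4.76%, against 1.78% of all probe sets, or 0.655% lower). No gene was called higher by limma (1.13% of all probe sets were); 18 had an unadjusted p under 0.05, 6 higher and 12 lower (28.6%, against 15% of all probe sets). TBL45, high after 18 h of red light in wild type, was lower in the mutant. The 6 pif3 arrays read 271.3, 258.2 and 279.4 units at D0 and 244.6, 269.7 and 251.3 at D1, and the 6 wild-type arrays 386.8, 383 and 389.5 at D0 and 363.5, 355.2 and 326 at D1. The groups did not overlap at either time, and the log2 change was -0.46 (SE 0.05, adjusted p = 2.4e-04).

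TBL37 (AT2G34070) lay at 943 to 1162 units in pif3 and 1282 to 1513 in wild type (-0.37, SE 0.07, adjusted p = 0.013), and had no call in red light at either time. TBL38, lower after 18 h of red light, lay at 274.1 to 329.6 units in pif3 and 299.2 to 435.1 in wild type (-0.35, SE 0.08, adjusted p = 0.036). TBL38 lost this call in 8 of 12 fits that left out an array: WT_D0 replicate 1, each WT_D1 array, pif3_D0 replicate 1 or 3, and pif3_D1 replicate 1 or 2, with adjusted p of 0.063 to 0.091. TBL45 and TBL37 kept theirs in all 12, but TBL37 lost its call with arrays scaled to the same median (-0.33, adjusted p = 0.059), and none of the 3 was called with no scaling. The 25S rRNA signal was high in all pif3 arrays and low in 2 of the 6 wild-type ones; with it as a covariate TBL45 and TBL37 were still called (adjusted p = 0.0017 and 0.032). Without WT_D0 replicate 1 and WT_D1 replicate 2, both low in 25S rRNA signal, and WT_D18 replicate 1, the adjusted p was 0.0063 for TBL45 and 0.091 for TBL37. Among the light-response markers LHCB4.1 and LHCB4.2 were higher in dark-grown pif3 (0.38 and 0.44, adjusted p = 0.0066 and 0.0016). The seed storage gene PAP85 lay at 471.5 to 851.7 units in pif3 and 823.6 to 1637 in wild type, ranges that overlap, and was not called (-0.84, adjusted p = 0.06); its part in these results was not tested.

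**Figure D4:**
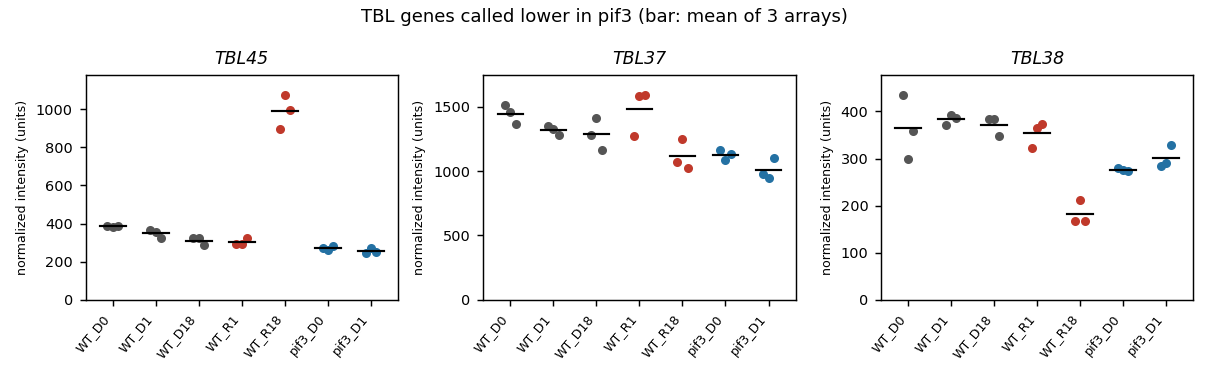
Normalized intensity (arbitrary units, linear axis from 0) of TBL45, TBL37 and TBL38 on each array by group; points are arrays and bars the mean of 3. In TBL45 the 6 pif3 arrays (244.6 to 279.4 units) lie below the 6 wild-type arrays of the same times, and the WT_R18 arrays lie above all others.

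No expansin (0 of 18), XTH (0 of 9), CSL (0 of 7) or tubulin gene (0 of 7) was called in pif3, beside 1.78% of all probe sets. Lists this short can hold no call at that share. EXPA4, which red light lowered at 18 h, was at 839.3 ± 25.6 units in pif3_D0 and 664.4 ± 88.2 in WT_D0 (SD, n = 3 each), without a call over both times (0.30, limma adjusted p = 0.086). At D1 its groups overlapped, at 713.8 ± 46.5 in pif3 and 596 ± 112 in wild type. EXPA8 lay at 1026 to 1277 units in pif3 and 1312 to 1557 in wild type, also without a call (-0.29, adjusted p = 0.082). EXPA16 had the highest estimate of the 63 genes, 0.47 (adjusted p = 0.07). CSLC04 was at -0.26 (adjusted p = 0.058).

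Staying in the dark for 18 h more moved none of the 63 genes past the threshold in limma, with 10 at an unadjusted p under 0.05, 1 higher and 9 lower (15.9%, against 13.3% of all probe sets). All probe sets gave 10 calls (0.044%), and this count ran from 0 to 570 with an array left out, the latter without WT_D0 replicate 1. The changes of the 63 genes ran from -1.04 for TBL19, near background at 23.8 and 0.358 units, to 0.60 for TBL42. TUB1 was at -0.24 (adjusted p = 0.54) and EXPA9 at -0.16 (adjusted p = 0.65), with standard errors of 0.16 and 0.14; both changes were smaller than those of the same genes after 18 h of red light, with which they share the WT_D18 arrays.

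Other genes of wall building and the cytoskeleton, from name lists set with earlier results known, gave 12 measured members in all. At 18 h of red light 2 of 12 were called (16.7%, against 34.4% of all probe sets): the actin gene ACT11 rose by 0.56 (adjusted p = 0.0038) and PME61, a pectin methylesterase, fell by 0.82 (adjusted p = 3.7e-04). By list, these were 1 of 3 other cytoskeleton genes and 1 of 3 pectin and wall modification genes. Some of the 12 were too dim to show a change: ACT12 and IRX15 had group means below 0 units throughout, and PRX52 lay at 6.26 to 20.4. None of the 3 other polysaccharide enzymes, the cellulose synthesis gene COB, the glycoprotein gene HRGP1 or the wall sensor THE1 was called at 18 h. At 1 h, in pif3 and over 18 h of darkness none of the 12 was called by limma, with 1, 2 and 0 at an unadjusted p under 0.05. Of all probe sets, 4.94%, 1.78% and 0.044% were called there, and 14.9%, 15% and 13.3% had an unadjusted p under 0.05. A list of 12 can hold no call at such shares.

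Several of the 63 genes lie side by side in the TAIR10.1 gene table. Among protein-coding genes there were 4 directly adjacent pairs. XTH18 and XTH19 were both lower at 18 h (-0.96 and -1.44). In the pair EXLA3 and EXLA1 only the second was called at 18 h (-0.18 and -1.01), with EXLA3 at 17.4 and 12.6 units in the groups compared. Neither gene of the pairs TBL28 and TBL30 or TBL21 and TBL19 was called at 18 h.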

How the data were processed

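Biotin-labelled cRNA was made from 5 ug of total RNA, per the labels' protocols. The deposited values are linear intensities, 1 per probe set and array; how the authors summarised and scaled them is not given in the sources used here. Array medians ran from 36.2 to 103 and 9.78% to 12.2% of values lay below 0. Precision is limited by the number of arrays, and p-values measure the spread between replicates labelled as biological. Quantile normalization was applied to the linear intensities; negative values were then raised to 0, an offset of 16 added and log2 taken; group means in units are before the floor. Of 22810 probe sets, 64 controls were set aside. All 21 arrays entered 1 model of 7 group means (lmFit and eBayes, limma 3.58.1, R 4.3.3), with Benjamini-Hochberg adjustment over 22746 probe sets, two-sided. On data simulated for the 18 h comparison over 22746 probe sets, 90.5% of 200 changes of 2-fold were recovered, and 3.21% of calls were false. The 200 were drawn from bright probe sets only, and all others were left unchanged, unlike in the data. Noise was independent and normal on the normalized scale. These rates therefore do not cover dim genes or the choice of scaling. Probe sets were named through the platform annotation and a TAIR10.1 gene table: 13513 had 1 gene and 503 several, and the latter were left unnamed. Genes, gene lists and tests were chosen with earlier results of these data known. In full are given, per comparison, up to 8 called increases and 8 decreases whose groups did not overlap, and per family the smallest p at 18 h; genes added to these were chosen after their values were seen. Alternatives were other scalings, offsets of 4 and 64, a filter at 50 units, fits to the compared groups, a replicate block, the 25S rRNA signal as a covariate and each array left out. Averaging probe sets per gene changes nothing, since each gene had 1. Same-numbered replicates correlated over 0.1 in 3 of 15 pairs (from -0.10 to 0.26), so numbers were not taken to pair samples.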

Additional observations from a re-analysis of the deposited data

Results flagged for a closer look

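For 19 of the 63 genes the red light change at 18 h differed from that at 1 h in limma's test of the difference itself (log2 change at 18 h minus log2 change at 1 h). It was higher at 18 h for EXPB3 (2.43), TBL45 (1.82), XTH16 (1.35), CSLA03 (1.33), XTH32 (1.26), EXPB1 (0.70), TBL25 (0.67), TBL34 (0.57), TBL35 (0.40) and CSLC6 (0.37). It was lower at 18 h for TUB1 (-1.84), XTH19 (-1.29), EXPA9 (-1.18), EXLA2 (-1.07), EXPA4 (-0.91), TBL38 (-0.87), TBL39 (-0.76), TUB6 (-0.71) and TUA6 (-0.45). TBL35, a gene related to xylan acetylation, was called at neither time by itself, at -0.30 at 1 h (adjusted p = 0.055) and 0.10 at 18 h (adjusted p = 0.43). The 25S rRNA signal moves with this difference, at 128 to 466 units in WT_R1 and 2650 to 3423 in WT_R18. With it as a covariate, 13 of the 63 genes were called, beside 9.52% of all probe sets. Of the 19 genes above, XTH32, CSLC6, XTH19, EXLA2, EXPB1, TBL35 and TUA6 lost their call (adjusted p of 0.09, 0.059, 0.12, 0.064, 0.072, 0.082 and 0.066). XTH19 and EXPB1 were also not called without the 3 dark arrays low in that signal (adjusted p of 0.054 and 0.056). With an array left out, EXPB1 lost its call in 9 of 12 fits. TBL35 lost it in 7, without WT_D1 replicate 1 or 3, WT_D18 replicate 2, WT_R1 replicate 1 or 2, or WT_R18 replicate 2 or 3 (adjusted p of 0.056 to 0.08). TBL34 lost it in 3, without WT_D18 replicate 2 or 3 or WT_R18 replicate 3 (0.055, 0.058 and 0.051). With no scaling between arrays 2 of the 63 genes were called, EXPB3 and TBL45, beside 2.81% of all probe sets.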

How the results depend on the processing

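No alternative reversed a called change of any of the 63 genes. With no scaling between arrays, calls fell to 165 probe sets and 0 higher and 0 lower genes of the 63 at 1 h, 1997, 4 and 6 at 18 h, 639, 2 and 0 for the difference of the times, 4 probe sets and 0 lower genes in pif3, and 0 probe sets over 18 h of darkness; 80%, 75.8%, 87.5% and 25% of the first 4 probe set counts were then higher, against 56.3%, 41%, 49.5% and 63.3%. Fitting only the compared groups gave 728 probe sets, 0 higher and 2 lower genes at 1 h, 229 probe sets in pif3 and 0 in darkness. With the replicate block, 1 gene was higher at 1 h and 2 probe sets were called in darkness; it also ended the calls of TBL28 at 1 h, TBL15 at 18 h and TBL38 in pif3. The 25S rRNA covariate gave 619 probe sets and 1 higher gene at 1 h, 2165 probe sets for the difference (60.6% higher), 242 and 1 higher gene in pif3, and 0 in darkness. In pif3 an offset of 64 gave 5 lower genes and the filter on dim probe sets 1 higher; in darkness an offset of 4 gave 6 probe sets and that filter 2. Of 2 settings chosen after seeing the data, leaving out the 3 dark arrays with a low 25S rRNA signal gave 1 higher gene at 1 h, 116 probe sets and 1 lower gene in pif3, and 257 probe sets in darkness. Leaving out WT_R1 replicate 2 and WT_D18 replicate 2 gave 1 higher gene at 1 h and 0 probe sets in darkness. With 1 array left out, probe sets, higher and lower genes ran from 861 to 1006, 1 to 2 and 3 to 5 at 1 h, 6568 to 7328, 9 to 12 and 16 to 20 at 18 h, 3530 to 4518, 7 to 11 and 9 to 11 for the difference, 179 to 559, 0 to 1 and 2 to 3 in pif3, and 0 to 570, 0 to 0 and 0 to 0 in darkness. The causes were not tested. Changes of genes near background depend on the offset and are limited by signal.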

Other observations

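Some of the 63 genes lay higher at D1 than at D0, in darkness and with no change of light. Others lay lower in wild type, such as TBL45 (383 to 389.5 units in WT_D0, 326 to 363.5 in WT_D1) and TBL25 (1062 to 1116, then 926.3 to 1026). These differences were seen in the values and not tested, and the genes named are examples. XTH19 read 1165, 1031 and 1204 units in WT_D0 and 1631, 1473 and 1726 in WT_D1. In pif3 it read 1161, 1240 and 893.6 at D0 and 1539, 1883 and 1238 at D1, where the groups overlapped narrowly. XTH18 read 477.3, 611 and 641.8 units in WT_D0 and 736.2, 738.1 and 760.5 in WT_D1, and 547.7, 719.1 and 390.7 against 919.4, 1092 and 728 in pif3. TUB1 read 1340, 1166 and 1421 units in WT_D0 and 1553, 1590 and 1705 in WT_D1, and 1035, 1170 and 934.4 against 1391, 1434 and 1174 in pif3. The WT_D18 arrays of XTH19 (1007 to 1346) and TUB1 (923.8 to 1412) lay below all WT_D1 arrays. The same held for XTH32, at 28.8 to 52.8 units in WT_D18 and 65.9 to 92.8 in WT_D1. It also held for EXPA9 (709.6 to 938.5, below 1041 to 1213), XTH18 (387.1 to 534.1, below 736.2 to 760.5) and XTH33 (205.6 to 330.8, below 369.1 to 424.5). EXLB1 went the other way (150.4 to 172.5 in WT_D18, 125 to 125.1 in WT_D1). For XTH19, TUB1, XTH32, EXPA9, XTH18 and XTH33 the dark reference of the 1 h comparison thus stood higher than that of the 18 h comparison.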
